A study of Mus musculus with 661 samples.

Results

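The genes described here are Ly6a, which encodes Sca-1, and 5 relatives, Ly6c1, Ly6c2, Ly6e, Ly6h and Ly6d. They were chosen by name, and all 6 are among the 45808 symbols of the count table. Ly6 proteins are small, cysteine-rich molecules of the Ly6/uPAR family, most of them held on the outer face of the cell membrane by a GPI anchor. Sca-1 is a surface antigen used to sort blood stem cells, and in bone it separates subsets of mesenchymal and endothelial cells. Interferons induce several of these genes, and Ly6C is a familiar marker of monocytes that is also made by endothelium.

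Single stromal cells were sorted from bone of wild-type C57BL/6 mice that were young (about 2 months) or old (about 24 months), and each was sequenced as its own full-length library. Every gate excluded Ter119 and CD45. From the endosteum, the sorts took MSC-S (no CD31, Sca-1 present, CD51 present), mOPr (no CD31, no Sca-1, CD51 and PDGFRα present, no LepR), OPr (like mOPr but without PDGFRα) and AEC (CD31 present, Sca-1 high, CD105 low). The central marrow gave MSC-L (no CD31, no Sca-1, CD51, PDGFRα and LepR present) and SEC (CD31 present, Sca-1 low, CD105 high). Young and old cells numbered 59 and 59 MSC-S, 44 and 29 OPr, 26 and 26 mOPr, 53 and 58 MSC-L, 84 and 82 AEC, and 70 and 71 SEC. The study describes endosteal endothelium as mainly AEC and marrow endothelium as mainly SEC, so for these cells the Sca-1 gate and the tissue of origin cannot be told apart. A cell named SEC here may thus be Sca-1 high, and a cell named AEC Sca-1 low; the surface values recorded for each cell at sorting were not used.

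No label names the mouse, so each age of a population is 1 sample and no difference below has a replicate check. Levels are counts scaled to a total of 1000000 nuclear counts (CPM), summed over the cells of a group unless a single cell is meant, and a cell is said to carry a gene at 10 CPM or more. Ranges in parentheses are 95% intervals that cover counting error alone; the reads carry no molecular tags, so copies made by amplification are counted, and differences between mice are not in them. Median depth, young then old, was 602470 and 693396 nuclear counts per cell in MSC-S, 686077 and 775426 in OPr, 516984 and 444242 in mOPr, 463538 and 352562 in MSC-L, 409992 and 414261 in AEC, and 314844 and 302201 in SEC.

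Over all 661 cells, Ly6e had 304358 counts, Ly6a 211732, Ly6c1 173204, Ly6c2 1499, Ly6h 48 and Ly6d 0. Ly6e was carried by 524 cells, Ly6a by 385 and Ly6c1 by 348. Levels were also scaled by the joined length of all annotated exons of a gene, 1205 bases for Ly6a and 3784 for Ly6e. In young AEC this gave 1240.1 CPM per kilobase for Ly6a, 865 for Ly6c1, 660.2 for Ly6e and 3.09 for Ly6c2. On that scale Ly6a, not Ly6e, had the highest level of these 4 genes in AEC. The same was so in young MSC-S, with 757 for Ly6a, 295 for Ly6c1 and 52.4 for Ly6e. Before scaling, Ly6e was above Ly6a in young AEC, 2498 against 1494 CPM, so the order there rests on these lengths. Lengths of single transcripts were not used.

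Ly6a transcript was high in the populations sorted for Sca-1 and near 0 in most cells sorted against it. The gate was set on the Sca-1 protein that Ly6a encodes, so the levels by gate describe how closely the transcript follows that protein. In AEC, endothelium described as Sca-1 high, single cells ran from 0 to 5048 CPM in young cells, with a median of 1012, and from 0 to 4742 in old cells, with a median of 1455. MSC-S, the mesenchymal gate with Sca-1, ran from 0 to 3532 CPM in young cells, with a median of 632, and from 3.65 to 7731 in old cells, with a median of 969.8. SEC, endothelium described as Sca-1 low, ran from 0 to 1610.5 CPM in young cells, with a median of 102, and from 0 to 3284 in old cells, with a median of 212. The cells named AEC and SEC thus overlap in Ly6a per cell, and SEC includes many cells without the transcript. The 3 mesenchymal gates without Sca-1 had a median of 0 in both ages, apart from young mOPr at 0.855 CPM. Their highest cells reached 471 CPM in young and 30.7 in old OPr, 12.9 and 206 in mOPr, and 8.04 and 116 in MSC-L.

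**Figure D1:**
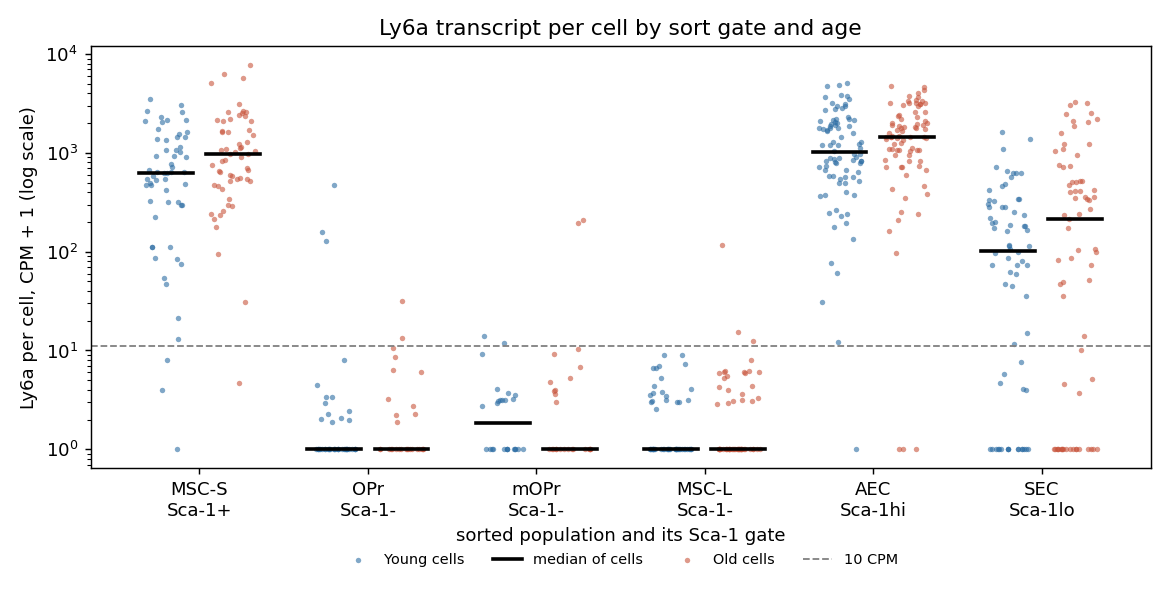
Ly6a in each of the 661 cells (CPM plus 1, log axis), by sorted population and its Sca-1 gate, with young and old cells side by side and a bar at each group's median. AEC and MSC-S fill the upper range, SEC is spread from 0 to 3284 CPM, and the 3 gates without Sca-1 have medians near 0.

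Summed over cells, the order of Ly6a levels was AEC, MSC-S, SEC and then the Sca-1-negative gates. AEC stood at 1494 CPM (1482 to 1507) in young and 1736 CPM (1723 to 1750.2) in old mice, MSC-S at 912 CPM (902 to 922) and 1304 CPM (1293 to 1315), and SEC at 208 CPM (202 to 214) and 528 CPM (518 to 538). Among the Sca-1-negative gates, old mOPr at 20.7 CPM (18.3 to 23.4) and young OPr at 18.6 CPM (17.1 to 20.2) did not differ beyond their intervals. Below them came old MSC-L at 3.95 CPM (3.12 to 4.94), old OPr at 2.25 CPM (1.66 to 2.98), young mOPr at 2.19 CPM (1.5 to 3.1) and young MSC-L at 1.27 CPM (0.852 to 1.83), where the intervals of the last 3 overlap. Much of these low levels comes from single cells, since the top cell gave 59% of the Ly6a counts of young OPr, 47.1% of those of old mOPr and 61% of those of old MSC-L. In young AEC and young MSC-S the top cell gave 6.17% and 8.06%.

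Between mesenchymal gates, Ly6a in MSC-S was 100.2-fold (92.5 to 109) the level of the 3 Sca-1-negative gates together in young mice and 181-fold (164 to 201) in old mice. In the first library-number range these ratios were 179.9 and 1070.3, in the second 71.2 and 101, and without the top cell of each side 199 and 249.7, moves well past the counting intervals. Genes were compared if they had 100 or more counts spread over 5 or more cells of the groups concerned; of the 4 members that did, 3 were past 2-fold in young mice (Ly6a, Ly6c1 and Ly6c2, all higher in MSC-S), where 38% of all genes compared were past 2-fold. In old mice 2 of 4 were past 2-fold (Ly6a and Ly6c1), against 47% of genes. Ly6c2 was lower in old MSC-S than in the Sca-1-negative gates, 0.61-fold (0.51 to 0.73), with 396 counts in those gates. Cells with blood cell markers, described below, held 395 of these counts. Between endothelial populations, Ly6a in AEC was 7.2-fold (6.98 to 7.42) the SEC level in young and 3.29-fold (3.22 to 3.35) in old mice. Ly6a, Ly6c1 and Ly6c2 were past 2-fold here in both ages, 3 of 4 members each time, against 39.9% of genes in young and 39.3% in old mice. Ly6a was also higher in AEC than in MSC-S, 1.64-fold (1.62 to 1.66) in young and 1.33-fold (1.32 to 1.35) in old mice, and SEC stood 22.8-fold (21 to 24.9) and 73.4-fold (66.3 to 81.5) above the Sca-1-negative mesenchymal gates. All SEC fall in 1 of 3 ranges of library numbers, and with AEC of that range alone the AEC to SEC ratio was 5.32 in young and 2.77 in old mice.

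Cell by cell, Ly6a separates the mesenchymal gates almost fully. Of young MSC-S cells, 37 of 59 lay above the highest Sca-1-negative cell, and of old MSC-S cells 55 of 59; 0 Sca-1-negative cells reached the MSC-S median at either age. Taking each MSC-S cell with each Sca-1-negative cell of its age, the MSC-S cell was the higher in 97.4% of young and 99.5% of old pairs. AEC were the higher in 89.7% of young and 81.5% of old pairs with SEC, so the endothelial populations overlap more, and most so in old mice. At 10 CPM, with both ages together, Ly6a was carried by 162 of 166 AEC, 114 of 118 MSC-S, 97 of 141 SEC and 12 of 236 Sca-1-negative mesenchymal cells. At 100 CPM the counts were 157 of 166, 105 of 118, 74 of 141 and 6 of 236, and at 1000 CPM 101 of 166, 48 of 118, 17 of 141 and 0 of 236. Each gate thus has a different upper reach of Ly6a, while at 1 CPM even 89 of 236 Sca-1-negative cells pass.

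Among AEC, MSC-S and the Sca-1-negative gates, few cells had Ly6a against their gate. SEC, described as Sca-1 low, are not in this tally, and 3 young and 10 old SEC lay above the AEC median of their age. All 4 AEC cells under 10 CPM had 0 Ly6a counts, and all 4 sit in cluster E2 of the study's clustering, which holds 7 AEC cells. These 4 cells carried 0 of 5 endothelial markers at 10 CPM as a group, while 5 of 5 pericyte markers were present, led by Acta2, the actin of smooth muscle and pericytes, at 23222 CPM and with a summed level of 38691 CPM. Of 4 arterial markers 3 were present too, summing to 607 CPM with Gja4 at 544. The 3 AEC cells of E2 that carried Ly6a had 5 of 5 pericyte markers as well, summing to 17044 CPM. They had 4 of 4 arterial markers, at 1012 CPM, and 5 of 5 endothelial markers. Outside E2 all 159 AEC cells carried Ly6a, the lowest at 11.1 CPM. The 4 MSC-S cells under 10 CPM of Ly6a (2 in M5, the others in M12 and M15) all carried Ly6c1, a neighboring gene of the same family, and carried 0 of the 5 endothelial markers.

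In the other direction, 12 Sca-1-negative cells carried Ly6a: 5 OPr, 4 mOPr and 3 MSC-L. The OPr cells lay in M3 to M5, and the 3 from young mice had 128, 156 and 471 CPM. Among mOPr, the 2 old cells had 192 and 206 CPM and sat in M1 and M2, the clusters the study describes as MSC-L-like, with Cxcl12, a niche chemokine of LepR-positive stroma, at 24751 and 36879 CPM in them. All 3 MSC-L cells were old and in M1 or M2, the highest at 116 CPM and the rest at 11.4 and 14.2. Against them stood 0 of 53 young MSC-L cells. The intervals of these shares overlap, 5.17% (1.08 to 14.4) of old and 0% (0 to 6.72) of young cells. Ly6c1 was carried by 5 of the 12, 0 of them carried 4 or more of the 5 endothelial markers, and 0 carried 7 or more of 15 blood cell markers.

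Transcripts of other gate antigens can be set beside Ly6a. Pecam1, which encodes CD31, was at 2040.0 CPM in young AEC and 712 in young SEC, against 1.19 in young MSC-S. Eng, which encodes CD105, was higher in SEC (2403 young, 2263 old) than in AEC (1222 and 1401), the reverse of Ly6a in the same cells. Lepr was at 3160.4 CPM in young MSC-L but also at 362 in young and 1333 in old OPr, a gate without LepR, where Ly6a stayed at 18.6 and 2.25.

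Ly6c1 encodes a form of Ly6C and lies near Ly6a on chromosome 15. Its levels had the same order of gates as Ly6a, AEC, MSC-S, SEC and then the gates without Sca-1. In AEC, Ly6c1 ran from 0 to 5180.0 CPM in young cells, with a median of 1341, and from 0 to 5983 in old cells, with a median of 1645. MSC-S cells ran from 0 to 2657 CPM in young cells, with a median of 362, and from 0 to 5041 in old cells, with a median of 648. SEC ran from 0 to 1657 CPM in young cells, with a median of 3.09 and an upper quartile of 72.2. In old cells SEC ran from 0 to 4634, with a median of 40.2 and an upper quartile of 593. Most SEC cells of each age thus lay below the AEC median, while some reached the range of AEC. Carriers of Ly6c1 numbered 80 and 79 young and old AEC, 53 and 57 MSC-S, and 31 and 36 SEC.

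Summed levels of Ly6c1 were 1449.9 CPM (1437 to 1463) in young and 1722 CPM (1708 to 1736) in old AEC, 494 CPM (487 to 501) and 844 CPM (835 to 853) in MSC-S, and 97.7 CPM (93.6 to 102) and 457 CPM (448 to 467) in SEC. The Sca-1-negative gates were far lower: 6.92 and 9.12 CPM in OPr, 25.5 and 3.6 in mOPr, and 0.702 and 1.13 in MSC-L. 1 cell gave 83.1% of the young and 1 gave 82.2% of the old mOPr counts of Ly6c1. MSC-S stood 55.8-fold (51.4 to 60.6) above the Sca-1-negative gates in young and 172-fold (152 to 195) in old mice. AEC stood 14.8-fold (14.2 to 15.5) above SEC in young but 3.77-fold (3.68 to 3.85) in old mice, since old SEC had more Ly6c1, and the values within the shared library-number range were 14.8 and 2.7. In young mice the endothelial populations therefore differ more in Ly6c1 than in Ly6a, and AEC exceed MSC-S more in Ly6c1 (2.94-fold) than in Ly6a (1.64-fold).

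Ly6c2 encodes the other form of Ly6C, the main one in monocytes, and was scarce in the stromal cells. It was highest in AEC, 8.46 CPM (7.52 to 9.49) in young and 10.3 CPM (9.26 to 11.4) in old mice, and lower in MSC-S, 2.75 CPM (2.22 to 3.36) and 4.54 CPM (3.9 to 5.26), and in SEC, 3.33 CPM (2.61 to 4.19) and 4.29 CPM (3.45 to 5.28). Neither SEC and MSC-S of the same age, nor young and old SEC, differed in Ly6c2 beyond their intervals. MSC-L had 0 counts in either age, mOPr 1 in young and 0 in old mice, and young OPr 13.

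Old OPr was the exception, with 396 counts of Ly6c2 in 3 cells, of which 2 carried it, 18.5 CPM (16.7 to 20.4). Of the 661 cells, 9 carried 7 or more of 15 blood cell markers, 8 of them old OPr and 1 old SEC, and these 9 held 395 Ly6c2 counts but 2 Ly6c1 counts. The other 21 old OPr cells held 1 Ly6c2 and 193 Ly6c1 counts. Ly6g, a neutrophil antigen of the same family, had 910 counts in these cells, in 3 of the 9, and 0 in the other old OPr cells. Ptprc, the gene of CD45 that the sort excluded, was at 384 CPM in old and 0.136 in young OPr. Ly6a was at 1.38 CPM in the 9 cells and 2.5 in the other old OPr cells, Ly6c1 at 0.344 and 12, and Ly6e at 660.4 and 219.5. Without these cells the log2 ratio of old over young in OPr was -2.90 for Ly6a, 0.80 for Ly6c1, -2.83 for Ly6c2 and 0.62 for Ly6e.

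In MSC-S and AEC the few Ly6c2 counts kept a near fixed ratio to Ly6c1. There were 0.557 Ly6c2 counts per 100 Ly6c1 counts in young MSC-S (0.45 to 0.681), 0.538 in old MSC-S (0.462 to 0.624), 0.584 in young AEC (0.519 to 0.654) and 0.598 in old AEC (0.537 to 0.663). In young OPr it was 6.4, with all 13 Ly6c2 counts in 1 cell that did not carry Ly6c1, and in SEC it was above that of MSC-S and AEC, 3.41 (2.66 to 4.3) in young and 0.939 (0.753 to 1.16) in old mice. The transcripts are close relatives: of all 50-base stretches of Ly6c1, 21.5% also occur in Ly6c2 and 11.1% in Ly6a, and of those of Ly6c2 13.9% occur in Ly6c1. At 100 bases the shares of stretches found in any other gene were 10.1% for Ly6c1, 5.81% for Ly6c2 and 1.45% for Ly6a, while Ly6e and Ly6d had 0 shared stretches even at 50 bases. Ly6c2 in MSC-S, AEC and SEC is therefore uncertain, since transcription of Ly6c2 and Ly6c1 reads placed at Ly6c2 cannot be told apart.

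The promoters of Ly6c1 and Ly6c2 are shown because the 2 genes are close relatives with very different levels in stromal cells. RefSeq promoter sequences of build GRCm38.p6, 300 bases from 250 before to 50 after a start, matched 2 of the 6 members, Ly6c1 and Ly6c2, with 2 entries each; Ly6a, Ly6e, Ly6h and Ly6d had no entry. The entry shown for Ly6c1 is chr15:75048788-75049087 and for Ly6c2 chr15:75111922-75112221, both on the minus strand and written 5′ to 3′. Capitals mark matches to 4 motifs searched on both strands, with no match overlapping another: TATAAA (in 13.6% of the 32851 promoter entries), CCAAT (37.4%), AGGAAGT (9.35%) and TTCNNNGAA (8.3%).
Ly6c1: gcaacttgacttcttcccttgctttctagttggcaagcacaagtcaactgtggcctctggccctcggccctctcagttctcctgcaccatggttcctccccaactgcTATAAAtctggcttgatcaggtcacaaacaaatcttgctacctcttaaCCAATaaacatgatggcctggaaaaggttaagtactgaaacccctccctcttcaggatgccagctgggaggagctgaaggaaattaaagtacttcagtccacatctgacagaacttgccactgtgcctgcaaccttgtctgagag
Ly6c2: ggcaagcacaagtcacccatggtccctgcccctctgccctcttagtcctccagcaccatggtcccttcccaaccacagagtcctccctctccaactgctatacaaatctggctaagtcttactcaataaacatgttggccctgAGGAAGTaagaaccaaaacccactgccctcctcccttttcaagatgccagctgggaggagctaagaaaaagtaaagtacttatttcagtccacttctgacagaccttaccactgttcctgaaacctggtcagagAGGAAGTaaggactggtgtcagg

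The Ly6c1 entry holds TATAAA at bases 108 to 113 and CCAAT at bases 156 to 160, and the Ly6c2 entry holds neither but has AGGAAGT at bases 144 to 150 and 278 to 284. Over 266 aligned bases the 2 entries are identical at 78.2%. In the other entry of each gene, which starts further downstream, AGGAAGT occurs in 1 place for Ly6c1 and in 2 for Ly6c2, and TATAAA and CCAAT in 0. That Ly6c1 site is at bases 125 to 131 of its entry, and the shown Ly6c1 entry ends within it. The shown Ly6c1 entry thus lacks this site because of where it ends. TTCNNNGAA occurs in 0 of the 4 entries.

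Ly6e, a family member first known from thymocytes that also affects virus entry into cells, was high in both AEC and SEC. In AEC it ran from 21.8 to 7169 CPM in young cells, with a median of 2186, and from 0 to 7923 in old cells, with a median of 2592. SEC ran from 10.7 to 4689 CPM in young cells, with a median of 1464, and from 0 to 7979.9 in old cells, with a median of 1445, which overlaps with AEC. MSC-S ran from 0 to 1345 CPM in young cells, with a median of 123, and from 0 to 1678 in old cells, with a median of 217. Unlike Ly6a and Ly6c1, Ly6e was carried by many Sca-1-negative cells: 36 of 53 young and 32 of 58 old MSC-L, 14 of 44 and 17 of 29 OPr, and 10 of 26 and 18 of 26 mOPr.

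In order of summed level, Ly6e was at 2896 CPM (2878 to 2914) in old AEC, 2498 CPM (2482 to 2515) in young AEC, 1876 CPM (1857 to 1894) in old SEC and 1548 CPM (1531 to 1564) in young SEC. After a wide step came old mOPr at 384 CPM, old MSC-S at 291, old OPr at 271, young MSC-L at 268, young MSC-S at 198, young OPr at 143, young mOPr at 136 and old MSC-L at 119.6. Old OPr and young MSC-L do not differ beyond their intervals, nor do young OPr and young mOPr. In summed Ly6e, MSC-S stood 1.08-fold (1.04 to 1.11) over the Sca-1-negative gates in young and 1.2-fold (1.17 to 1.23) in old mice, and AEC 1.61-fold (1.59 to 1.63) and 1.54-fold (1.53 to 1.56) over SEC. In the library-number range that holds both, AEC over SEC was 1.35 in young and 1.01 in old mice. By cell the mesenchymal gates lay further apart, with a median of 123 CPM in MSC-S against 8.43 in the Sca-1-negative gates together in young and 217 against 36.3 in old mice, and with carriers in 43 of 59 against 60 of 123 young and 54 of 59 against 67 of 113 old cells. Between endothelium and mesenchyme, AEC stood 12.6-fold (12.3 to 12.9) over MSC-S in young mice in summed Ly6e.

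Ly6h, a brain member of the family that acts on nicotinic acetylcholine receptors, had 48 counts in 38 cells. Its group counts were highest in SEC, 15 in young and 9 in old mice, with 8 and 8 in AEC. Of the counts, 39 came from the library-number range that holds SEC and the last AEC, and 3 and 6 from the other ranges; in the shared range AEC over SEC was 1.81-fold (0.664 to 4.54) in young and 2.53-fold (0.801 to 7.64) in old mice, with intervals that include 1. Ly6d, an antigen of B-lineage progenitors and keratinocytes, had 0 counts in the 661 cells, so its level in each group was not detectable at this depth, with a limit of 0.0861 CPM in young AEC and 0.24 CPM in old mOPr, the group with the fewest counts in all.

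With age, the clearest differences outside the Sca-1-negative gates were in SEC, where Ly6a and Ly6c1 were higher in old mice. The log2 ratio of old over young was 1.35 (1.30 to 1.40) for Ly6a, 2.23 (2.16 to 2.30) for Ly6c1, 0.28 (0.26 to 0.30) for Ly6e and 0.37 (-0.10 to 0.83) for Ly6c2. Of the members with enough counts 2 of 4 were past 2-fold in SEC, against 23.4% of genes. Median Ly6a per SEC cell went from 102 in young to 212 CPM in old mice, but the number of carriers was alike, with 49 of 70 young and 48 of 71 old cells. Cells with 1000 CPM or more of Ly6a numbered 3 of 70 in young and 14 of 71 in old SEC.

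AEC differed little with age. Their log2 ratios of old over young were 0.22 (0.20 to 0.23) for Ly6a, 0.25 (0.23 to 0.27) for Ly6c1, 0.28 (0.06 to 0.51) for Ly6c2 and 0.21 (0.20 to 0.23) for Ly6e, and 0 of 4 members were past 2-fold, against 25% of genes. In the library-number range shared with SEC, Ly6c1 and Ly6e in AEC were on the other side of 0, at -0.22 and -0.14. MSC-S were higher in old mice for each of 4 members, by log2 0.52 (0.50 to 0.54) for Ly6a, 0.77 (0.75 to 0.80) for Ly6c1, 0.72 (0.36 to 1.10) for Ly6c2 and 0.56 (0.51 to 0.60) for Ly6e. Again 0 of 4 were past 2-fold in MSC-S, against 23.7% of genes. The Ly6c2 ratio in MSC-S rests on few counts: it was -0.13 with cells thinned to 100000 counts, and 0.43 and 1.12 in the 2 library-number ranges. Ly6a in MSC-S was higher in old mice in each of the 2 library-number ranges that hold MSC-S, by log2 0.86 and 0.41.

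**Figure D2:**
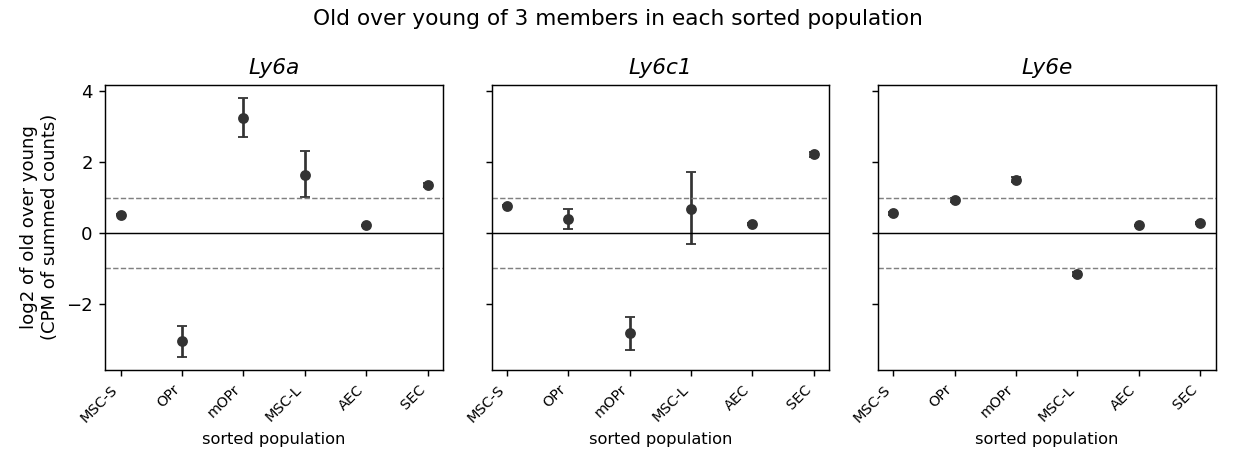
Log2 ratio of old over young (summed CPM) for Ly6a, Ly6c1 and Ly6e in each sorted population, with 95% counting intervals and dashed lines at 2-fold. Ly6a and Ly6c1 lie above 1 in SEC (1.35 and 2.23), all 3 genes in AEC and MSC-S lie between 0 and 1, and the Sca-1-negative gates scatter in both directions.

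In the Sca-1-negative gates the Ly6a and Ly6c1 ratios rest on few cells. OPr had a Ly6a log2 ratio of -3.05 (-3.51 to -2.62), from 3 carriers in young and 2 in old mice, and Ly6c1 of 0.40 (0.11 to 0.69), and 1 of 3 members was past 2-fold, against 48.3% of genes. In mOPr, 3 of 3 members were past 2-fold, Ly6a at 3.24 (2.71 to 3.82), Ly6c1 at -2.82 (-3.30 to -2.37) and Ly6e at 1.50 (1.43 to 1.58), against 46.5% of genes. Only 2 young and 2 old mOPr cells carried Ly6a. MSC-L had 2 of 2 members past 2-fold, Ly6a at 1.63 (1.00 to 2.30) and Ly6e at -1.16 (-1.23 to -1.09), against 28.2% of genes. Some of these ratios turn with the library-number range: in the first and second ranges Ly6c1 was at -4.02 and 2.05 in OPr, Ly6a was at -0.97 and 2.45 in MSC-L, and Ly6c1 in mOPr was at 3.72 in the first and at -6.95 or lower in the second, where old mOPr had 0 counts. Ly6e, the member with enough carriers in these gates, was thus higher in old mOPr and OPr (log2 0.92 (0.86 to 0.98) in OPr) and lower in old MSC-L, and its ratio kept its side of 0 in both library-number ranges of all 3 gates. In OPr the Ly6e ratio was 0.62 without the blood-marker cells, and the 4 MSC-L markers summed to 5223 CPM in young and 22019 in old OPr; their part in the Ly6e difference was not tested.

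Ly6a in SEC can also be given by cluster. Cluster E7, which the study describes as SEC-like, holds 59 young and 44 old SEC cells, and in it Ly6a was at 192 and 208 CPM, 1.09-fold (1.03 to 1.14) in old over young. Outside E7, 11 young cells had 279 and 27 old cells 1058 CPM. These cells held 24% of the Ly6a counts of young and 75.4% of those of old SEC. Old SEC had 12 cells in E6, with 1097 CPM of Ly6a, and 10 in E3 to E5, the clusters that hold most AEC, with 1681 CPM; young SEC had 2 and 0. Within E6, Ly6a was lower in old SEC, 1487 CPM in the 2 young cells against 1097 in the 12 old ones. It was also lower in old SEC over E1 and E2, 52.2 in 9 young against 9.41 in 5 old cells. E2 holds 0 young SEC and 1 of these old cells, so only E1 of this pair is shared by both ages. Of the 11 young SEC outside E7, 9 sit in E1, a cluster with Cxcl12 at 29545 CPM beside 5 of 5 endothelial markers.

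Markers of vessel type differed with these cells. The 4 arterial markers summed to 1148 CPM in old SEC outside E7, led by Gja4, a gap junction gene of arterial endothelium, at 564, and 4 of 4 were at 10 CPM or more. Young SEC outside E7 summed to 56 with 2 of 4 and Gja5 at 0, and SEC in E7 to 95.9 in young and 91.2 in old mice with 1 of 4. The 3 sinusoidal markers, led by Stab2, an endocytic receptor of sinusoids, summed to 12372 and 12946 CPM in E7 and to 3575 and 2220.5 outside it. Blood cell markers were also higher in old SEC outside E7, 937 CPM over 15 genes against 85.4 in young, as were pericyte markers, 1209 against 402, while MSC-L markers were lower, 9292 against 30049.7, and osteolineage markers too, 615 against 5134. The study marks some cells in its endothelial clusters as doublets of a mesenchymal and an endothelial cell, and doublets were not looked for here. SEC cells without an arterial marker at 10 CPM had Ly6a at 186 CPM in young (48 cells) and 283 in old mice (37 cells), and those with 1 or more at 259 (22) and 798 (34). The part of each marker set in the Ly6a difference was not tested. The clusters were built from the expression of these same cells, and the study lists Ly6a, Ly6c1 and Ly6c2 among the genes that guided the endothelial ones, so these levels by cluster are descriptions.

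**Figure D3:**
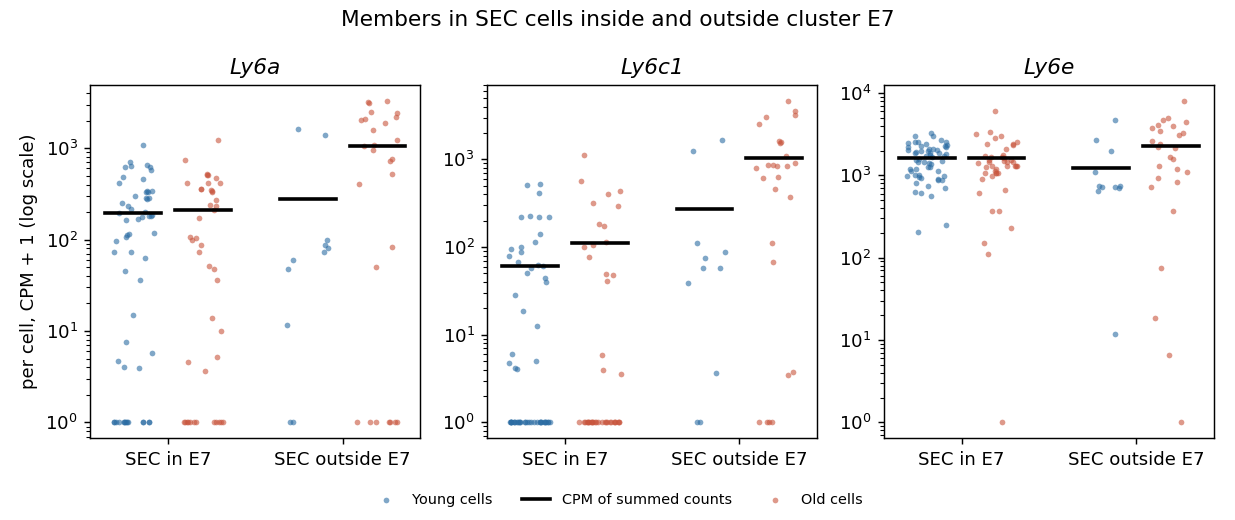
Ly6a, Ly6c1 and Ly6e (CPM plus 1, log axis) in single young and old SEC cells inside and outside cluster E7, with a bar at the CPM of summed counts of each set. Inside E7 the Ly6a bars are close (192 and 208 CPM), and outside E7 the old bar is higher (279 and 1058 CPM).

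Ly6c1 in SEC was higher in old mice within E7 too, 60.2 in young and 110.4 CPM in old cells, 1.83-fold (1.69 to 1.99), and outside E7 it was at 270.4 and 1032 CPM. Ly6e in E7 was level, 1621 and 1632 CPM, 1.01-fold (0.989 to 1.02). AEC in E3 to E5 had 1689 CPM of Ly6a in young and 1829 in old mice, 1.08-fold (1.07 to 1.1).

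Levels by cluster can be given for mOPr too. M1 and M2 hold 2 of 26 young and 14 of 26 old mOPr cells, and the old ones gave 96.9% of the Ly6a and 72.3% of the Ly6e counts of old mOPr. M3 to M5, which the study describes as OPr-like, hold 8 young and 12 old mOPr cells, and M10 to M16 the other 16 young and 0 old ones, with Ly6e at 91.9 CPM. In M3 to M5, Ly6e was at 219 CPM in young and 225 in old mOPr, 1.03-fold (0.948 to 1.12), and the Ly6a log2 ratio was -1.41 (-2.84 to -0.10), the reverse of that in all mOPr. The 4 MSC-L markers summed to 763 CPM in young and 20622 in old mOPr, led in both by Cxcl12 at 552 and 18595, and their part in the mOPr levels was not tested. MSC-L of M1 and M2 alone had a Ly6e log2 ratio of -0.94 (-1.01 to -0.87), just short of 2-fold, with 15.4% of the Ly6e counts of young MSC-L in 2 cells of other clusters. MSC-S of M6 to M16, the MSC-S-like clusters, kept the modest Ly6a difference, 1.33-fold (1.31 to 1.35) in old over young.

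Among the mesenchymal clusters Ly6a was lower in M1 to M5 than in M6 to M9, M12 and M16. It was at 5.2 CPM in M1, 8.14 in M2, 39.4 in M3, 31.9 in M4 and 111 in M5, then 1436 in M6, 2834 in M7, 722 in M8, 1746 in M9, 804 in M12 and 655 in M16. M7, with 15 cells that all carry Ly6a, had the highest level, above every endothelial cluster, and also the highest mesenchymal Ly6c1, 1503 CPM. M9, made up of 10 old MSC-S cells, was next in both genes, with 997 CPM of Ly6c1. M15, a mix of 5 young MSC-S, 5 young OPr and 7 young mOPr cells, had 72.9 CPM of Ly6a, and M14, with 4 cells, 201; M10, M11 and M13 have 1 cell each, with 0 carrying Ly6a. 1 cell gave 55.2% of the Ly6a counts in M1, 81.3% in M2, 76.1% in M3, 43.2% in M4, 46.8% in M5 (an MSC-S cell) and 54.7% in M15, so the order among these clusters rests on single cells. The study lists Ly6a and Ly6c1 among the guide genes of the mesenchymal clusters, so these levels too are descriptions.

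Among endothelial clusters Ly6a was at 1959.7 CPM in E3, 1915 in E5, 1488 in E4, 918 in E6, 198 in E7, 165 in E2 and 84 in E1. The top cell gave 73.8% of the Ly6a counts in E2 and 55% in E1, so the levels of these 2 clusters rest on single cells. E6, with 8 young and 2 old AEC beside 2 young and 12 old SEC, lies between E4 and E7 in Ly6a, and in Ly6c1 too, at 955 CPM against 1491 in E4 and 79.8 in E7. In Ly6e it sits with the AEC-rich clusters, at 2766 CPM against 2966 in E3, 2611 in E4, 3011 in E5 and 1623 in E7. Among mesenchymal clusters of more than 1 cell, Ly6e was at 487 CPM in M6, 427 in M4, 396 in M9, 361 in M7, 309.7 in M12, 252 in M2, 232 in M5, 225 in M1, 209.5 in M8, 183 in M14, 121 in M16, 17 in M15 and 15.2 in M3, so M6, M7 and M9, the highest in Ly6a, were among the 4 highest, beside M4, where 44.6% of the Ly6e counts came from 1 cell.

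In single cells Ly6a and Ly6c1 mostly came together. Both were carried by 80 of 84 young and 79 of 82 old AEC, by 50 and 56 of 59 MSC-S at each age, and by 24 of 70 young and 33 of 71 old SEC. SEC stood apart, since 25 young and 15 old SEC cells carried Ly6a without Ly6c1, and 7 and 3 the reverse. Spearman correlation of Ly6a with Ly6c1 over the cells of a group was 0.71 in young and 0.58 in old MSC-S, 0.61 and 0.68 in AEC, and 0.30 and 0.72 in SEC (n as above). Ly6a with Ly6e gave 0.52 and 0.56 in MSC-S, 0.55 and 0.45 in AEC, and 0.35 and 0.66 in SEC. The cells of a group share depth differences, library batches and mice that are not named, and Ly6a and Ly6c1 share part of their sequence, so these values describe the cells and carry no test.

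Over the 12 groups, the genes with the profile most like Ly6a, by Pearson correlation of log2 CPM among 7863 genes that reach 50 CPM in a group, were Ly6c1 (0.93), Cox6a1 (0.93), Anxa3 (0.91), Fam126a (0.90) and S100a13 (0.88). Ly6c1 was nearest to Anxa3 (0.97), Msn (0.94), Crip2 (0.94), Arhgdia (0.94) and Ly6a (0.93). Ly6e had other neighbors, Prex2 (0.97), Dll4 (0.97), Actn4 (0.97), Kif26a (0.96) and Tnfsf10 (0.96), of which Dll4 is a Notch ligand of arterial endothelium, and it ranked 309 for Ly6a (r 0.68). Anxa3, an annexin, was near both Ly6a and Ly6c1 and ran from 11.6 CPM in old mOPr to 469 in old AEC. The 12 groups include 2 ages of each population and differ in depth, so these correlations rank genes and show nothing of shared control.

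Of 34 other Ly6 and uPAR genes, 29 are in the count table and 11 reached 10 CPM in at least 1 group, Gpihbp1, Plaur, Cd59a, Lynx1, Ly6g, Slurp1, Lypd5, Ly6g5b, Ly6g6c, Ly6g6d and Ly6g6f. Gpihbp1, which carries lipoprotein lipase to the capillary surface, was an endothelial gene with a higher summed level in SEC than in AEC: 684 CPM in young and 1047 in old SEC, 531 and 383 in AEC. In the shared library-number range the order turned round in young mice, with AEC at 1039 CPM, 1.52-fold (1.48 to 1.56) the SEC level, and held in old mice, with AEC at 556. It was carried by 66 young SEC cells and 50 young AEC cells. Plaur, the urokinase receptor, was present with and without Sca-1: it was at 156 and 370.5 CPM in young and old OPr, 101 and 112 in AEC, 91.6 and 94 in SEC, 74.9 and 92.7 in MSC-S, 64.4 and 0.16 in mOPr, and 0.438 and 0.256 in MSC-L, with 61.1% of the old OPr counts in 1 cell.

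Cd59a, an inhibitor of the complement attack complex, was at 68.2 and 72.6 CPM in young and old AEC and at 94.1 and 4.41 in mOPr. Lynx1, a modulator of nicotinic receptors, was at 55 and 60.8 CPM in MSC-S, 49.1 and 17.5 in mOPr, and 25.9 and 17.2 in MSC-L. Among the mesenchymal gates it was highest in MSC-S in old mice, as Ly6a was. In young mice MSC-S (52.6 to 57.5) and mOPr (45.6 to 52.8) did not differ beyond their intervals. The other 7 were rare: in its highest group, 1 cell gave 69.9% of the counts of Ly6g (old OPr), 92.6% of Slurp1 (young MSC-S), 86.8% of Lypd5 (old MSC-S), 77.1% of Ly6g5b (young MSC-L), 100.0% of Ly6g6c (old SEC), 36.8% of Ly6g6d (young SEC) and 97% of Ly6g6f (old MSC-L). Beside Ly6a, Ly6c1 and Ly6e, the members of the wider family with levels spread over many of these cells were thus Gpihbp1, Plaur, Cd59a and Lynx1.

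Genes that build the GPI anchor of these proteins were also compared with age. The share past 2-fold was 14.3% in MSC-S and MSC-L, 40% in OPr, 39.1% in mOPr, 25.9% in AEC and 33.3% in SEC. The share over all genes stands with each count below, and the differences from it were not tested. SEC had 9 of 27 genes past 2-fold (3 higher, 6 lower; 23.4% of all genes), with a median log2 ratio of -0.19 against 0.06 over all genes, the furthest being Piga 2.82 and Pgap3 -2.32 (88.8% of its young counts in 1 cell). AEC had 7 of 27 genes past 2-fold (1 higher, 6 lower; 25% of all genes), median -0.57, with Pigg 1.66 and Pigo -3.98 furthest, and MSC-S 4 of 28 genes past 2-fold (2 higher, 2 lower; 23.7% of all genes), median 0.02, with Pigb 1.53 and Pyurf -1.92. More anchor genes were past 2-fold lower than higher in old SEC, where Ly6a and Ly6c1 were higher. Over all genes in SEC, 14.6% were past 2-fold higher and 8.8% lower, and the difference was not tested. OPr had 10 of 25 genes past 2-fold (7 higher, 3 lower; 48.3% of all genes), mOPr 9 of 23 genes past 2-fold (4 higher, 5 lower; 46.5% of all genes) and MSC-L 4 of 28 genes past 2-fold (2 higher, 2 lower; 28.2% of all genes).

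Interferon-response genes, a set often induced together with Ly6a and Ly6e, had a median log2 ratio of the same sign as Ly6e in the 3 Sca-1-negative gates, and a median near or below 0 in MSC-S, AEC and SEC. mOPr had 15 of 18 genes past 2-fold (15 higher, 0 lower; 46.5% of all genes), with a median log2 ratio of 2.95 against 0.12 over all genes, where Ly6e was at 1.50; the furthest was Gbp3 10.27 (90.4% of its old counts in 1 cell). The MSC-L markers were also higher in old mOPr, as given above, and their part in this difference was not tested. OPr had 16 of 18 genes past 2-fold (14 higher and 2 lower, against 48.3% of all genes), median 2.34, in a population where 8 of 29 old cells carry blood markers. The furthest were Ifitm1 8.60 and Ifit3 -6.86. Ifit3 had 0 counts in old OPr, so its value rests on the 0.1 CPM added. MSC-L, where Ly6e was lower in old mice, had 6 of 21 genes past 2-fold (1 higher, 5 lower; 28.2% of all genes), median -0.55, with Rsad2 4.37 (54.7% of its old counts in 1 cell) and Ifitm1 -2.10 furthest.

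AEC had 0 of 20 genes past 2-fold (0 higher, 0 lower; 25% of all genes) and a median of -0.02, and Ly6a in AEC differed little as well. SEC had 7 of 21 genes past 2-fold (6 higher, 1 lower; 23.4% of all genes), median 0.05, with Ifitm1 4.64 (96.1% of its old counts in 1 cell) furthest, and Cxcl10 -1.46 furthest the other way. MSC-S had 9 of 19 genes past 2-fold (3 higher, 6 lower; 23.7% of all genes), median -0.26, with Gbp3 -3.59 (50.7% of its young counts in 1 cell) and Ifit1 2.86 (99.5% of its old counts in 1 cell) furthest, while Ly6a and Ly6e were higher in old MSC-S. The AEC over SEC ratios of young mice had 11 of 21 genes past 2-fold (10 higher, 1 lower; 39.9% of all genes), median 0.84 against 0.07 over all genes, and those of old mice 8 of 21 genes past 2-fold (6 higher, 2 lower; 39.3% of all genes), median 0.58 against -0.04. In the shared library-number range the count in young mice was 9 of 19 (8 higher and 1 lower), median 0.86 against -0.11 over all genes. Of all genes 44.4% were past 2-fold there (18.2% higher and 26.2% lower). The count in old mice was 8 of 21 (3 higher and 5 lower), median 0.18 against -0.23. Of all genes 44.8% were past 2-fold there (16% higher and 28.8% lower). The MSC-S over Sca-1-negative ratios of young mice had 8 of 20 genes past 2-fold (2 higher and 6 lower), median -0.40 against -0.28 over all genes. Of all genes 38% were past 2-fold there (9.95% higher and 28% lower). The ratios of old mice had 17 of 21 genes past 2-fold (0 higher and 17 lower), median -1.83 against -0.51. Of all genes 47% were past 2-fold there (10.8% higher and 36.2% lower), so all genes leaned lower as well.

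All 6 genes lie on chromosome 15 within 805.2 kilobases (chr15:74762056-75567255, build GRCm38), in the order Ly6d, Ly6e, Ly6a, Ly6c1, Ly6c2 and Ly6h. Ly6e and Ly6a are 34971 bases apart, Ly6a and Ly6c1 45986, Ly6c1 and Ly6c2 59327, and Ly6c2 and Ly6h 439297. Profiles were compared only for Ly6a, Ly6c1 and Ly6e, the members that reach 50 CPM in a group. The most alike pair of these, Ly6a and Ly6c1, are neighbors among the members, but Ly6e lies nearer to Ly6a than Ly6c1 does. No exon of a member overlaps an exon of another gene, so the counts of the 6 have no overlapping neighbor in this annotation.

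**Figure D4:**
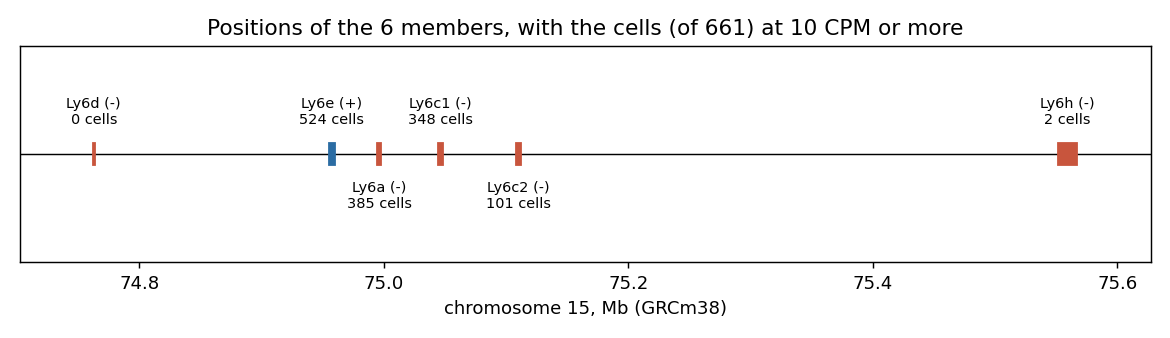
Positions of the 6 members on chromosome 15 (Mb, GRCm38), to scale, with strand and the number of the 661 cells at 10 CPM or more. Ly6e, Ly6a, Ly6c1 and Ly6c2 lie close together, with 524, 385, 348 and 101 carrying cells, and Ly6d and Ly6h, at the 2 ends, have 0 and 2.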

How the data were processed

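The members are the 6 named genes, and the members and gene lists were chosen with earlier results of these data known. Per the labels, the authors deposited counts of reads per gene and cell: full-length cDNA libraries of sorted cells, mapped with GSNAP (version 2015-09-29 per the submitters' notes) to GRCm38.p4 with Ensembl release 81 genes and spike-ins, and counted with HTSeq (version not stated). The authors left out cells with few reads or a high mitochondrial share. The 46078 table entries were summed by symbol to 45808, mitochondrial genes (37) were set aside, and all 661 deposited cells were used.

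Groups are sorted population and age, each 1 sample, so no test was run. Intervals are exact Poisson (summed counts), conditional binomial (ratios) and Clopper-Pearson (shares) at 95%. Ratios add no pseudocount; a group with 0 counts was set to 3, and no ratio is given when both sides are at or under 3. A gene entered the comparisons across genes if it had 100 or more counts spread over 5 or more cells of the groups concerned, and past 2-fold means an absolute log2 ratio of 1 or more, with 0.1 CPM added where a side was 0. Profile correlations add 1 CPM. Cells with at least 7 of 15 blood cell markers at 10 CPM or more are the blood-marker cells. Ranges of library numbers (18697 to 18925, 19909 to 20353, 26610 to 26801) are parted by gaps over 500 and are not named as batches by the labels. Exon lengths, positions and shared stretches come from the GENCODE M21 annotation and transcripts, promoters from RefSeq.

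Genes are named by rule: the 6 members, other Ly6 and uPAR genes at 10 CPM or more in a group, the 2 furthest genes per direction of the GPI-anchor and interferon lists (not all are printed), the 5 nearest in profile, fixed cell type markers and gate antigens. Alternatives were mean CPM over cells, cells thinned to 100000 counts, other pseudocounts and thresholds, median-of-ratios scaling, single library-number ranges, no filter, and leaving out blood-marker cells or the top cell. The ratios, their intervals and the 2-fold calls were tested on simulated counts of SEC and OPr, and the other steps were not. Tools were scipy 1.17.1, Biopython 1.88, pandas 2.3.3, matplotlib 3.10.9 and numpy 2.4.6 under Python 3.11.15.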

Additional observations from a re-analysis of the deposited data

Results flagged for a closer look

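Some members differed with age in 1 direction in 1 sorted population and in the other direction, or not past 2-fold, in another, and each such log2 ratio of old over young is listed here. For Ly6a they are -3.05 in OPr, 3.24 in mOPr, 1.63 in MSC-L and 1.35 in SEC. For Ly6c1 they are -2.82 in mOPr and 2.23 in SEC, and for Ly6e 1.50 in mOPr and -1.16 in MSC-L. With 1 sample per group the difference between populations was not tested. In OPr, mOPr and MSC-L at most 3 cells of an age carried Ly6a, and 1 cell gave 83.1% of the Ly6c1 counts of young mOPr. The SEC and Ly6e values rest on more cells but differ by cluster. In SEC of E7 the log2 ratio was 0.12 for Ly6a and 0.88 for Ly6c1. For Ly6e it was 0.04 in mOPr of M3 to M5 and -0.94 in MSC-L of M1 and M2. In the first library-number range the mOPr Ly6c1 value turns to 3.72 and the MSC-L Ly6a value to -0.97.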

How the results depend on the processing

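The Ly6a ratios between gates kept their direction in all 22 settings run, and 20 left the counting interval. For MSC-S over the Sca-1-negative gates, young then old, they were 121 and 219 with mean CPM over cells, 113 and 214 with cells thinned to 100000 counts and the 7 of 661 with fewer left out, 199 and 249.7 without the top cell of each side, 179.9 and 1070.3 in the first library-number range, and 71.2 and 101 in the second. For AEC over SEC they were 6.57 and 3.05, 6.73 and 3.08, and 7.59 and 3.46 under the first 3 of these, 5.32 and 2.77 in the shared range, and 8.79 and 8.77 for AEC of E3 to E5 over SEC of E7, a setting chosen after seeing the data, with clusters guided in part by Ly6a.

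Counts of members past 2-fold in old over young kept within 1.5 times in 44 of 55 settings. In OPr, 1 as reported, the count was 2 with mean CPM, 3 thinned, 2 without top cells, 2 and 3 in the first and second ranges, and 2 in its own clusters. In MSC-L, 2 as reported, it was 1 without top cells, 1 in the first range and 1 in its own clusters; in MSC-S, 0 as reported, 1 in the second range; and in SEC, 2 as reported, 0 in E7. The own clusters were chosen after seeing the data. Of 217 settings for single members, 208 kept the direction and 9 reversed it. The reversed log2 ratios were -0.13 for Ly6c2 in MSC-S when thinned, -0.56 for Ly6c1 in OPr without top cells, -2.83 for Ly6c2 in OPr without the blood-marker cells, -1.41 for Ly6a in mOPr of M3 to M5, -4.02 for Ly6c1 in OPr, 3.72 for Ly6c1 in mOPr and -0.97 for Ly6a in MSC-L in the first range, and -0.22 for Ly6c1 and -0.14 for Ly6e in AEC in the third.

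The share of cells carrying Ly6a kept within its interval in 24 of 42 settings. At 100 CPM it was 83.1% in young MSC-S, 50% in young SEC and 54.9% in old SEC. At 1 CPM it was 100.0% in old MSC-S and 36.6% and 38.9% in young and old Sca-1-negative cells, where thinned cells gave 15.6% and 19.3%. The shares of all genes past 2-fold were within 1.5 times without the filter in all 10 comparisons. For each of these differences the cause was not tested. Depth limits which cells can be called carriers, since 10 CPM is under 10 counts in a cell of median depth in each group. No paired analysis was possible because the labels name no mouse.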
